A study of Mus musculus with 2 samples.

Results

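RNA-seq of 2 samples was used to follow 10 genes of the germline and of meiosis in cells that are not germ cells. The genes were chosen by symbol, namely *Dazl*, *Ddx4*, *Sycp1*, *Sycp2*, *Sycp3*, *Mael*, *Stk31*, *Piwil2*, *Hormad1* and *Tdrd1*, and all 10 were found, each under 1 identifier, among the 29311 genes listed for both samples. The first sample is wild-type mouse embryonic stem (ES) cells of the E14 line, which were grown without feeders in serum and LIF. The second is wild-type E10.5 forebrain of B6CBAF1/J embryos (forebrain below), with RNA that the methods describe as isolated from single embryos, while the labels speak of pools of cells for either sample. Each cell type has 1 sample and no replicates, so no test between cell types was possible, and cell type, strain and lysis reagent (Trizol or Trizol LS) cannot be told apart. In such bulk samples, fewer cells of a type and less RNA per cell cannot be told apart either.

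Germ cells depend on proteins that most somatic cells do without. SYCP1, SYCP2 and SYCP3 build the synaptonemal complex, which holds homologous chromosomes together in meiosis, and HORMAD1 binds the axes of these chromosomes before they synapse. DDX4 (also called VASA) is an RNA helicase of the germ granules, or nuage. In the same granules MAEL and the Tudor domain protein TDRD1 act with the Argonaute protein PIWIL2 in the piRNA pathway, which silences transposons. STK31 joins a Tudor domain to a kinase domain and is best known from male germ cells, and DAZL binds mRNAs and controls their translation. In somatic lineages several of these genes are known to be silenced through DNA methylation of CpG-rich promoters. In ES cells, complexes that contain E2F6 or the MGA and MAX proteins are known to repress many of them, and MAX and its partners bind the E-box CACGTG.

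The 10 genes lie on 9 chromosomes and have 1264 to 5967 bp of exon in 8 to 45 exons (NCBIM37, the mm9 assembly). Because promoter sequence bears on how such genes are silenced, the bases before their start sites were compared. RefSeq promoter sequences (annotated on GRCm38.p6) were found for 9 of them. Each could be placed in NCBIM37 by an exact match, with its start site 0 to 27 bases from the annotated 5′ end of the gene. *Piwil2* was not among the 9. In the 250 bases before the start site, the 9 genes had 7 to 31 CpG dinucleotides, with a median of 18, whereas the median of all 32841 RefSeq windows of this length was 6. The median GC content was 64.0%, compared with 52.4% for all windows.

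The E-box CACGTG, which reads the same on both strands, was present before 7 of the 9 genes, with 2 copies each before *Sycp3* and *Hormad1*. It occurred in 6.02% of all windows and in 9.97% of the 7119 windows with at least 18 CpG. That limit is the median of the members themselves. Below it lie *Sycp1* (17 CpG), *Sycp3* (12) and *Tdrd1* (11), all with an E-box, and *Sycp2* (7), without one. The share of 9.97% therefore does not match the CpG content of all 9 genes. An E2F-type site, TCCCGC on either strand, was found before *Ddx4*, *Sycp3*, *Mael* and *Hormad1*, and in 16.9% of all windows. These 4 genes had both motifs, which occurred together in 1.45% of all windows. No share among CpG-rich windows was computed for the E2F-type site or for both motifs together. Either motif holds a CpG, so the shares over all windows do not allow for the CpG content of the members. The windows of *Dazl* and *Sycp2* had neither. A match of letters is a description of the sequence and does not show that a factor is bound.

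The windows of 5 genes are printed here 5′ to 3′ on the strand of the gene, with both motifs in capitals. *Stk31* and *Mael* were chosen for their large differences between the samples, *Sycp3* for its high value in forebrain, *Tdrd1* for its similar values in both samples, and *Sycp2* for its low values and the lack of either motif. They lie at chr6:49345353-49345602 (plus strand), chr1:168168876-168169125 (minus), chr10:87922082-87922331 (plus), chr19:56900449-56900698 (plus) and chr2:178142364-178142613 (minus), all in NCBIM37.
Stk31: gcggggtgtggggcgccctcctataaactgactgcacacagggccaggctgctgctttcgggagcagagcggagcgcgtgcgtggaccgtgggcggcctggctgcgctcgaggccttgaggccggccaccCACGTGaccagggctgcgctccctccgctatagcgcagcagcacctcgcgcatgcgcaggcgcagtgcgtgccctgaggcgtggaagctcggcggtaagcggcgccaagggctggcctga
Mael: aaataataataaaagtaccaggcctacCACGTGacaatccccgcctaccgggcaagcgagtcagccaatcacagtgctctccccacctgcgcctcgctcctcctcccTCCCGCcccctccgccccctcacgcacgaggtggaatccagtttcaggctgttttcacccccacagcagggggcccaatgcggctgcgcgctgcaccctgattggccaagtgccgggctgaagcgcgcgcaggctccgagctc
Sycp3: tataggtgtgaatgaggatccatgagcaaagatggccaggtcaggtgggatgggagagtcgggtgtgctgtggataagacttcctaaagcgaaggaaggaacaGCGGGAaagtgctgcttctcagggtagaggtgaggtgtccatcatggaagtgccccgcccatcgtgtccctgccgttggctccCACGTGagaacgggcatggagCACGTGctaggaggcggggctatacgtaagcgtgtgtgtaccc
Tdrd1: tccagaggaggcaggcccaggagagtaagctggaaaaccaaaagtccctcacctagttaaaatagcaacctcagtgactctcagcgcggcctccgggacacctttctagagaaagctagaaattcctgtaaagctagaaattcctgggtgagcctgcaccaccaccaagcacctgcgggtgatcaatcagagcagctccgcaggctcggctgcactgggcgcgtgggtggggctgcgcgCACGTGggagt
Sycp2: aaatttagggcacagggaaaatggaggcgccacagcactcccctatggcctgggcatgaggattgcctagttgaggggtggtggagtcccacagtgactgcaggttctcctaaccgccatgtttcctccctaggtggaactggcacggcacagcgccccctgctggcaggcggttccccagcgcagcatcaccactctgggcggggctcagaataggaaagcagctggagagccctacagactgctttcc

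**Figure D1:**
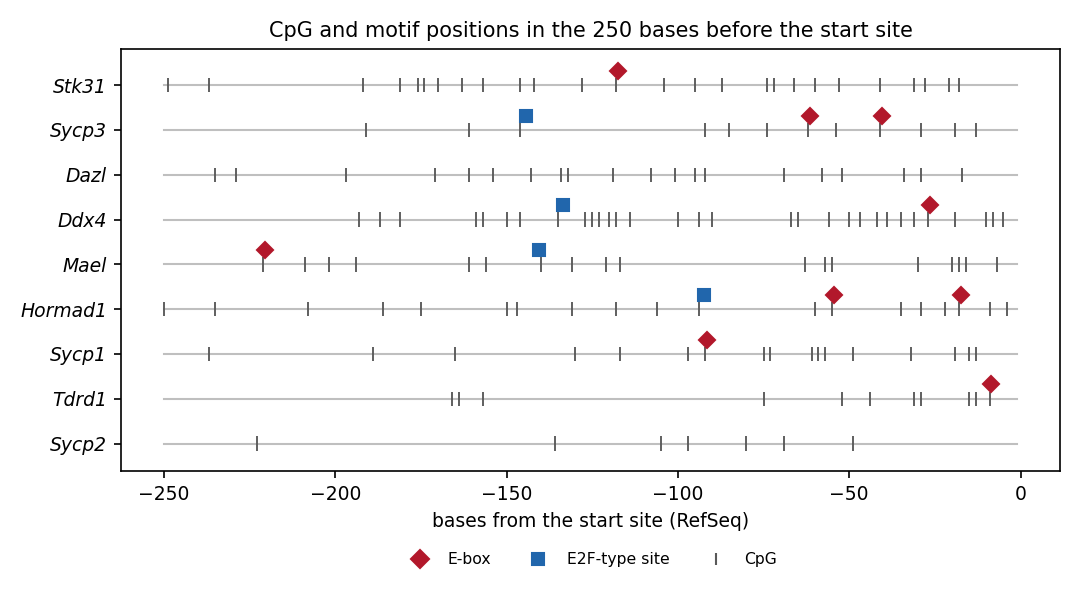
Positions of CpG dinucleotides (ticks), E-boxes (red diamonds) and E2F-type sites (blue squares) in bases from the start site, for the 9 genes with a RefSeq window of 250 bases, ordered by RPKM in ES cells. *Ddx4* has the most CpG, 31, and *Sycp2* the fewest, 7, with no motif in its row or in that of *Dazl*.

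The E-box nearest to the start site was that of *Tdrd1*, at bases -11 to -6. That of *Mael* lay farthest away, at -223 to -218. In *Sycp3* the pair lay at -64 to -59 and -43 to -38, and in *Hormad1* at -57 to -52 and -20 to -15. *Stk31*, *Sycp1* and *Ddx4* had a single E-box each, at -120 to -115, -94 to -89 and -29 to -24.

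The authors' values per gene are called RPKM, reads per length of exon with a scaling per sample. On their scale, 1 read on 1 kb of exon has a value of 1.2218 in ES cells and 0.8197 in forebrain. At the depth of these libraries, RPKM in its usual definition would be far lower. Levels given here are therefore on the authors' scale and cannot be set beside RPKM from other studies. Most low values were whole multiples of a step and others fractions of it, from which reads on genes were inferred, 42749741 for ES cells and 59740540 for forebrain, 1.4 times as many. A count of 3 reads was taken as the floor for a visible signal, or 0.61 to 2.9 RPKM for these 10 genes in ES cells, and 0.41 to 1.95 RPKM in forebrain. Intervals below are exact 95% intervals on the inferred reads and cover counting error only. Of the marker genes, 7 of 8 ES cell markers, *Sox2* excepted, were at least 4-fold higher in ES cells, and all 9 forebrain markers in forebrain. The forebrain sample also held RNA of other cell types. All 4 blood markers were higher there (summed RPKM 673751 compared with 275.7), as were all 4 mesenchyme markers (4265 and 37.13). Of 4 endothelial markers, with sums of 1587 and 601.8, 3 were higher in forebrain. The exception, *Pecam1*, had 316.51 in forebrain and 551.14 in ES cells. None of these 12 markers was at 0 in either sample. Their part in the values of the germline genes was not tested.

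All 10 genes had reads in ES cells, from 13 reads for *Sycp2* to 3531 for *Stk31*, and 9 of them had at least 50. In forebrain 9 genes were above 0, but only 8 reached the floor of 3 reads. In total the genes gathered 5749 reads in ES cells and 316 in the deeper forebrain library. In ES cells the members' median RPKM of 126.9 exceeded that of all listed genes, 48.94. In forebrain the members' median of 2.46 was below that of all listed genes, 62.37. Among listed genes the members sat at a median percentile of 60.2 in ES cells, and at 21 in the other sample. Above the median of all genes were 6 members in ES cells, and *Sycp3* alone in forebrain.

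Each of the 10 genes had the higher RPKM in ES cells, as did 49.4% of all listed genes. Differences were taken on log2(RPKM + 1), where low genes appear to differ less than by their ratio, and 7 of the 10 were at least 4-fold higher in ES cells. This holds for 11.3% of all listed genes (3324 of 29311). None was 4-fold higher in forebrain, as 14.4% of all genes were. Among the 19620 listed protein-coding genes, to which all 10 belong, the shares were 8.93% and 15.6%. At a 2-fold limit 9 of the 10 were higher in ES cells, *Tdrd1* being the exception, beside 23.3% of all genes. The share of 4-fold calls in ES cells was 11.2% among genes with at least 3 reads in either sample and 12.1% among those with an RPKM of at least 1. The median difference on this scale was 3.69 over the 10 genes and -0.01 over all genes. For 9 genes the counting interval of the RPKM ratio lay above 1, which applied to 30.4% of all genes. The genes were picked with earlier results of these samples known, so these counts describe the 10 genes and do not stand for germline genes as a class.

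**Figure D2:**
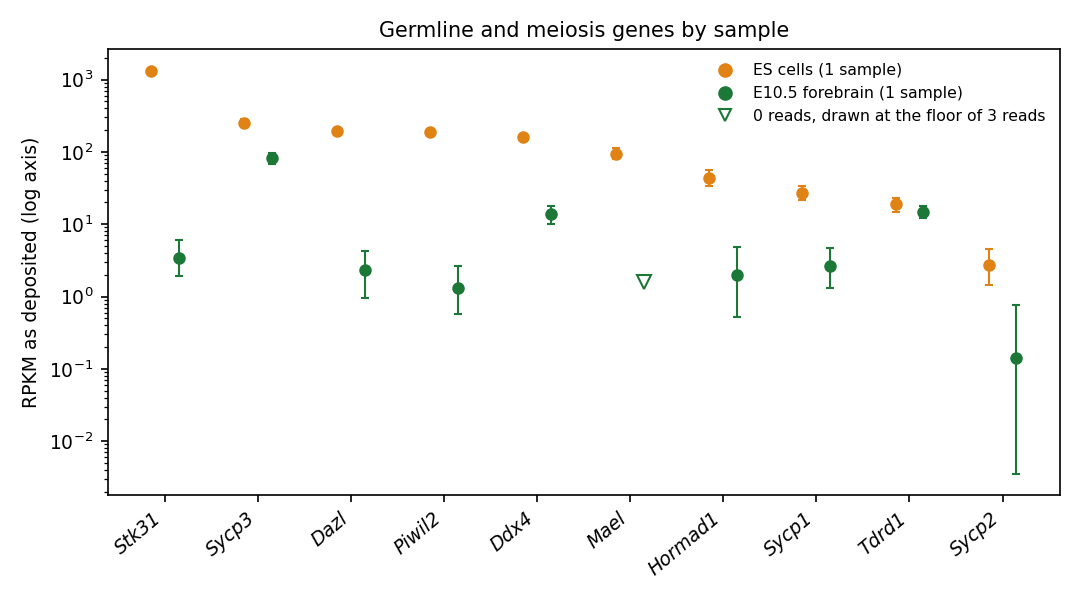
RPKM as deposited (log axis) of each gene in ES cells (orange) and forebrain (green), 1 sample each, ordered by the value in ES cells. Bars are 95% counting intervals, and the open triangle marks *Mael*, with 0 reads in forebrain, at the floor of 3 reads (1.59). The intervals of the 2 samples overlap for *Tdrd1* only.

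**Figure D3:**
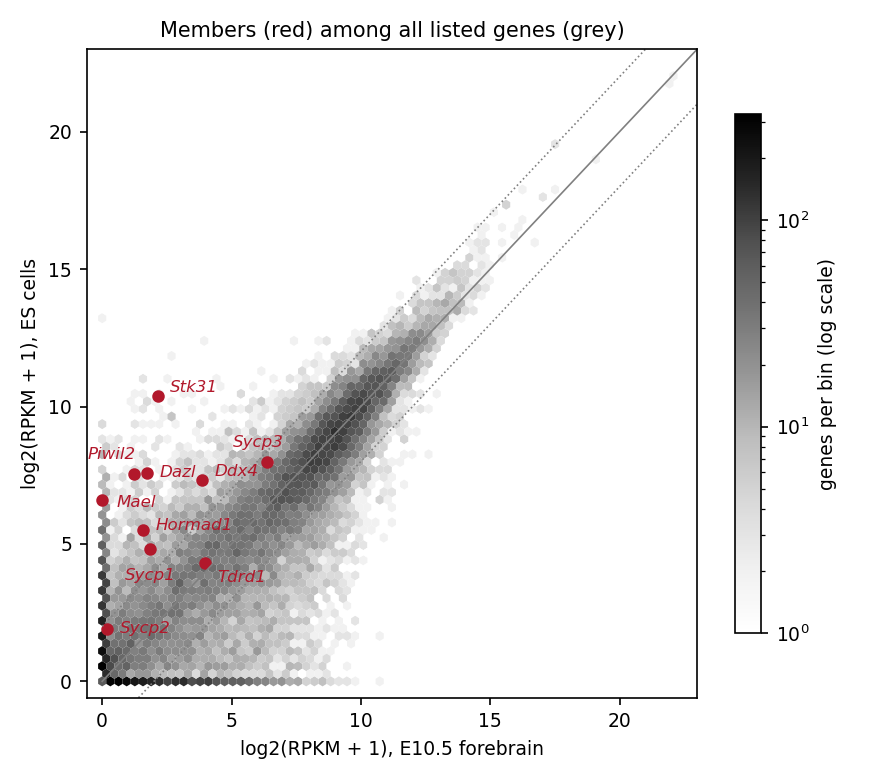
Each gene by its log2(RPKM + 1) in forebrain (horizontal) and ES cells (vertical), with all 29311 listed genes in grey, shaded by number, and the 10 germline and meiosis genes in red. The solid line marks equal values and the dotted lines 4-fold differences. The points of 7 red genes lie above the upper dotted line, and *Sycp3*, *Sycp2* and *Tdrd1* lie between the lines.

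Of the 4 members that belong to the synaptonemal complex and chromosome axis, *Sycp3* (ENSMUSG00000020059, chromosome 10, 87922314 to 87935981) had the highest values in both samples. Its RPKM was 253.06 in ES cells (262 reads, interval 224 to 286) and 81 in forebrain (125 reads, 67.5 to 96.6), a 3.12-fold difference (2.52 to 3.9). In forebrain it was the highest of the 10 genes and held 66.8% of their summed RPKM. However, 660 bp of its exons, or 52.2% of the exonic length, overlap exons of *Chpt1* on the other strand. *Chpt1* had an RPKM of 55.44 in ES cells and 148.38 in forebrain. The libraries are strand-specific, but the use of strand in counting is not stated in the sources used here, so how much of either *Sycp3* value stems from *Chpt1* was not tested. The other 9 members share no exonic base with another annotated gene.

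*Sycp1* (ENSMUSG00000027855, chromosome 3, 102622422 to 102740023), which forms the transverse filaments of the complex, had an RPKM of 27.11 in ES cells (77 reads, 21.4 to 33.9). In forebrain it had 2.6 (11 reads, 1.3 to 4.65), so that the value in ES cells was 10.4-fold higher (5.52 to 21.8). *Sycp2* (ENSMUSG00000060445, chromosome 2, 178079998 to 178142390), a partner of SYCP3 in the lateral elements, was the lowest member in ES cells. Its RPKM of 2.76 there rested on 13 reads (1.42 to 4.55), and its 0.14 in forebrain on 1 read (0.00348 to 0.765). The ratio was 19.7, with a counting interval of 2.91 to 823, so that its size is poorly determined at this depth. On log2(RPKM + 1) *Sycp2* differed by only 1.72. The synaptonemal complex genes were therefore far apart in ES cells, with *Sycp3* at percentile 69.2 of listed genes, *Sycp1* at 43.9 and *Sycp2* at 22.9.

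*Hormad1* (ENSMUSG00000028109, chromosome 3, 95363599 to 95391593) had an RPKM of 44.07 in ES cells (62 reads, 33.6 to 56.2) and 1.97 in forebrain (4 reads, 0.517 to 4.86), a 22.4-fold difference (8.58 to 87.5). Both *Hormad1* and *Sycp1* have a similar sequence elsewhere in the genome. A locus at chr15:90958943-90960393 covered 95.8% of the *Hormad1* transcript at 92.4% identity, and one at chr7:19371719-19374763 covered 89.6% of the *Sycp1* transcript at 91.9% identity. Whether reads were shared with these loci was not tested. For the other 8 genes no second locus with at least 90% identity over at least 100 bp was found.

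*Stk31* (ENSMUSG00000023403, chromosome 6, 49345603 to 49419500) stood apart in ES cells. Its RPKM of 1332.6 (3531 reads, 1289 to 1377) placed it at percentile 89.5, at rank 3069 of 29311 genes, and made up 57.6% of the summed RPKM of the 10 genes. In forebrain it had 3.42 (14 reads, 1.94 to 5.95), at percentile 23.5. The ratio of 390 (224 to 688) was the largest among the 9 genes with forebrain reads, although the intervals of *Piwil2* and *Sycp2* overlap it. No exon of another annotated gene overlaps it. The pseudogene *Gm17060*, which lies within the bounds of *Stk31* on the other strand, had 2721.07 in ES cells and 1415.4 in forebrain, yet shares no exonic base with it.

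*Piwil2* (ENSMUSG00000033644, chromosome 14, 70772287 to 70828901) had the next largest ratio among these 9 genes. It had an RPKM of 187.62 in ES cells (754 reads, 174 to 201) and 1.33 in forebrain (8 reads, 0.576 to 2.63), a 141-fold difference (70.9 to 327). The small RNA genes *U11* and *SNORA70* overlap the bounds of *Piwil2* on the same strand but share no exonic base with it. *U11* had 26911.95 in ES cells and 37913.95 in forebrain, and *SNORA70* had 11.1 and 0. *Mael* (ENSMUSG00000040629, chromosome 1, 168131516 to 168168875) was the sole member without a read in forebrain. Its RPKM in ES cells was 94.76 (120 reads, 78.6 to 113). Against the floor of 3 reads in forebrain, an RPKM of 1.59, the value in ES cells was at least 59.6-fold higher. The exact counting interval for 0 reads is wider, with an upper limit of 1.96 RPKM and a lower limit of 47.7 for the ratio.

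*Ddx4* (ENSMUSG00000021758, chromosome 13, 113388541 to 113442518) remained visible in both samples. It had an RPKM of 158.98 in ES cells (371 reads, 143 to 176) and 13.66 in forebrain (47 reads, 9.94 to 18), an 11.6-fold difference (8.67 to 16.3). *Tdrd1* (ENSMUSG00000025081, chromosome 19, 56900699 to 56944502) was the exception among the 10 genes. Its RPKM of 18.73 in ES cells (83 reads, 14.8 to 23.1) and 14.82 in forebrain (98 reads, 12 to 18) gave a ratio of 1.26, with an interval of 0.931 to 1.71 that includes 1. A difference of *Tdrd1* between these libraries was thus not detectable at this depth, and a ratio of up to 1.71 is compatible with the reads.

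*Dazl* (ENSMUSG00000010592, chromosome 17, 50418719 to 50432924) had an RPKM of 192.81 in ES cells (476 reads, 176 to 211), next to that of *Piwil2*. In forebrain it had 2.31 (8 reads, 0.939 to 4.29), and the ratio was 83.5 (44.6 to 207). For *Dazl*, *Stk31* and *Ddx4* the inferred forebrain reads fell midway between whole numbers (8.49, 13.51 and 47.48), as did those of *Sycp2* (13.48) and *Piwil2* (754.45) in ES cells.

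**Figure D4:**
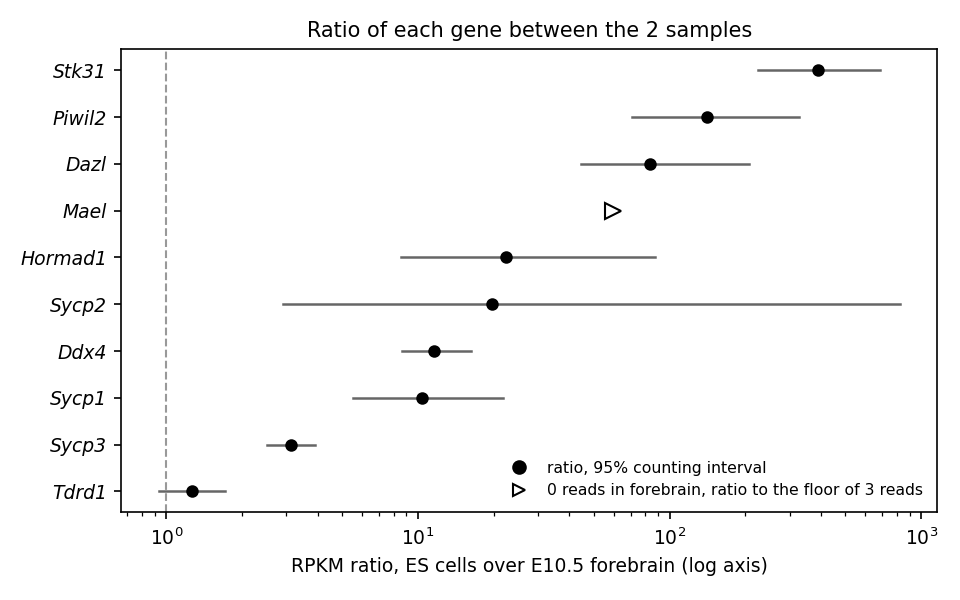
Ratio of the RPKM in ES cells to that in forebrain (log axis) for each gene, with 95% counting intervals of 1 library each and a dashed line at equal values. Among genes with forebrain reads *Stk31* has the highest ratio, 390, and only the interval of *Tdrd1* (0.931 to 1.71) includes 1. *Mael*, with 0 reads in forebrain, is drawn at its ratio to the floor of 3 reads, 59.6.

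By RPKM per length of exon, the order in ES cells was *Stk31*, *Sycp3*, *Dazl*, *Piwil2*, *Ddx4*, *Mael*, *Hormad1*, *Sycp1*, *Tdrd1* and *Sycp2*. Neighbours whose counting intervals overlapped were *Dazl* with *Piwil2*, *Piwil2* with *Ddx4*, *Hormad1* with *Sycp1* and *Sycp1* with *Tdrd1*. In forebrain *Sycp3* came first, followed by *Tdrd1* and *Ddx4*, whose intervals overlapped. From *Stk31* downwards, through *Sycp1*, *Dazl*, *Hormad1*, *Piwil2*, *Sycp2* and *Mael*, each interval overlapped that of the next gene. The order differed between the samples: *Stk31* was highest in ES cells but below *Sycp3*, *Tdrd1* and *Ddx4* in forebrain, and *Tdrd1* stood near the bottom of the first order and near the top of the other. Across the 10 genes Spearman's rho between the samples was 0.31, a description over genes of 1 library each.

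The genes around them were taken from 5 lists of the same pathways, with 71 genes of which 63 are listed in the tables. Of the 63 listed genes, 31 were at least 4-fold higher in ES cells and 5 in forebrain. The shares of all listed genes past the same limit were 11.3% and 14.4%, as above, and are the background for the counts that follow.

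Of 8 listed genes of the meiotic axis and synaptonemal complex, 7 were at least 4-fold higher in ES cells and none in forebrain, with a median difference of 3.29 on log2(RPKM + 1). *Syce1*, a central element gene, had an RPKM of 318.58 in ES cells and 0.84 in forebrain, from 381 reads and 1 read (ratio 379, interval 101 to 22489). The HORMAD1 relative *Hormad2* had 102.48 and 7.34, and the meiotic cohesin genes *Stag3* and *Smc1b* had 398.22 and 40.79, and 46.11 and 2.94, respectively. *Tex12*, a further central element gene, had 35.62 and 2.66 from 18 and 2 reads. *Syce2*, another central element gene, was the exception in this list and had the highest value in both samples, with 1034.45 and 474.68.

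Meiotic cohesin subunits have mitotic counterparts in all dividing cells, which offer a scale for these levels. Of 7 mitotic relatives of meiotic genes, none differed 4-fold, and the differences of the 5 cohesin genes among them ranged from -0.76 for *Smc1a* to 0.14 for *Smc3* on log2(RPKM + 1). *Stag3* made up 13.9% of the summed RPKM of *Stag1*, *Stag2* and *Stag3* in ES cells and 1.2% in forebrain. The share of *Rec8* in the sum with *Rad21* was 7.55% in ES cells and 0.772% in forebrain, and that of *Smc1b* in the sum with *Smc1a* was 3.82% and 0.149%. *Ddx4*, set beside the DEAD-box helicase *Ddx3x*, held 2.2% and 0.197%. In both samples the mitotic genes thus had the higher levels per length.

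The piRNA and nuage genes were split. Of 14 listed genes, 6 were at least 4-fold higher in ES cells and 2 in forebrain, and the median difference was 1.39. *Rnf17*, a Tudor domain gene, had the highest value in ES cells, 1921.09 compared with 34.22 in forebrain (ratio 56.1, 49.1 to 64.7). *Tdrd12* had 371.32 and 1 (ratio 371, 158 to 1140), *Fkbp6* had 634.07 and 3.31 (ratio 192, 92.4 to 477), and *Gtsf1* had 83.44 and 0, from 95 and 0 reads, which is at least 47.2-fold higher against the floor (lower counting limit 37.6). In contrast, the Tudor domain genes *Tdrkh* and *Tdrd7* were higher in forebrain. *Tdrkh* had 9.78 in ES cells and 209.29 in forebrain, a 21.4-fold difference (15.1 to 32.4), and *Tdrd7* had 16.38 and 174.87, a 10.7-fold difference (8.1 to 14.3). *Ddx25*, a helicase gene of the testis, had the highest forebrain value of this list, 382.65, and 108.97 in ES cells.

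Recombination genes had the smallest median difference of the 5 lists, 0.9. Of 15 listed genes, 3 were at least 4-fold higher in ES cells (*Msh4*, *Tex11* and *Mei4*) and 3 in forebrain (*Msh5*, *Hfm1* and *Rnf212*), beside 11.3% and 14.4% of all genes. *Tex11* had 57.94 and 2.49, *Mei4* 33.41 and 5.8, and *Hfm1* 6.7 and 36.1. *Rnf212* was at 2 reads in forebrain and 0 in ES cells, which is below the floor in both. *Msh4* had an RPKM of 36.81 in ES cells and 1 in forebrain, whereas its partner *Msh5* had 17.23 and 75.45. *Spo11*, which makes the breaks that start meiotic recombination, had 1 read in ES cells and 15 in forebrain. The highest values belonged to *Trip13* in ES cells (1982.36, and 1060.08 in forebrain) and to *Psmc3ip* in forebrain (1238.1, and 917.67 in ES cells).

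Among 12 listed genes of germ cell specification and regulation, 4 were at least 4-fold higher in ES cells and none in forebrain (median difference 1.53). These were *Prdm14*, with an RPKM of 299.26 and 0 (628 and 0 reads, at least 312-fold higher against the floor, with a lower counting limit of 253), *Sohlh2* with 182.56 and 0.35, *Dppa3* with 31.59 and 0.18 (the latter less than 1 read), and the DAZL relative *Boll* with 26.23 and 2.33. *Stra8*, the retinoic acid target that starts meiosis, had an RPKM of 0.68 from 1 read in either sample. *Kit* had the highest value of the list in both, 416.34 and 206.49.

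The list named other germline-restricted genes had the largest median difference, 4.78, or 3.89 with genes at 0 in 1 sample set to the floor. The name is that of the list and not a result of these samples. Of 14 listed genes, 11 were at least 4-fold higher in ES cells and none in forebrain. *Tex19.1* had an RPKM of 1480.43 in ES cells and 1.97 in forebrain (ratio 751, 330 to 3105), a level close to that of *Stk31*. *Zp3*, which encodes a protein of the egg coat, had 381.12 and 0 (413 and 0 reads, at least 205-fold higher against the floor, with a lower counting limit of 166). *Tex19.2* had 111.29 and 0.4, and *Tuba3a* had 175.66 and 1.87. *Tex15* was the highest of the list in forebrain, at 67.25, with 299.44 in ES cells.

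**Figure D5:**
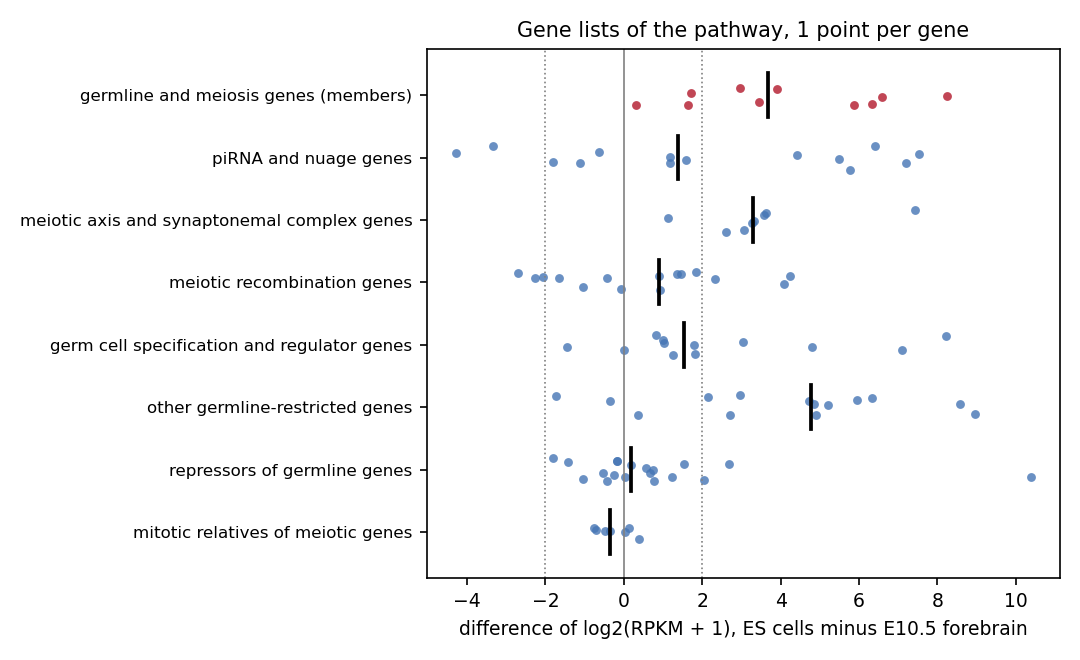
Difference of log2(RPKM + 1), ES cells minus forebrain, for the 10 germline and meiosis genes (red) and 7 related lists (blue), 1 point per listed gene, with vertical scatter for legibility only. Black bars are medians, and the dotted lines mark 4-fold differences. The medians run from 4.78 for other germline-restricted genes to -0.36 for mitotic relatives.

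All 19 listed genes whose products are known to repress germline genes had reads in both samples, *Dnmt3l* only 14 in forebrain. Of 19 such genes, 3 were at least 4-fold higher in ES cells and none in forebrain, beside 11.3% and 14.4% of all genes, and the median difference was 0.19. The count in ES cells was 2 in place of 3 when samples were scaled by summed RPKM or by total reads on genes. The 3 genes were *Dnmt3l*, with an RPKM of 6646.74 in ES cells and 3.97 in forebrain, the DNA methyltransferase gene *Dnmt3b*, with 1514.73 and 233.65, and *L3mbtl2*, with 1905.54 and 460.52. At any fold, 11 of the 19 were higher in ES cells, as were 49.4% of all listed genes, and 8 in forebrain. The DNA methyltransferase gene *Dnmt3a*, among the latter, had 182.56 in ES cells and 643.23 in forebrain, a 3.52-fold difference (3.37 to 3.68). *Hdac2* was the highest of the list in forebrain, at 6109.82. For the factors named above, *E2f6* had 293.53 and 787.05, *Mga* 1359.13 and 803.52, and *Max* 553.78 and 346.63. None of these 3 genes passed the 4-fold limit.

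Markers of cells that could be mixed into an ES cell culture were read in the same way. The 3 listed markers of two-cell-like cells (*Zscan4c*, *Zscan4d* and *Zscan4f*) had an RPKM of 2.06 to 2.76 in ES cells, from 4 or 5 reads each, and 0 in forebrain. Of 6 markers of differentiated cells, *T* (1112.09) and *Cdx2* (271.6) were high in ES cells, with 2.66 and 0 in forebrain. *Gata4*, *Gata6*, *Sox17* and *Afp* had 0.59 to 3.12 in ES cells. The part of any such cells in the values of the germline genes was not tested.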

How the data were processed

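Single-end, strand-specific RNA-seq of rRNA-depleted total RNA was analysed for 1 sample of ES cells and 1 of E10.5 forebrain. Per the labels, reads were 100 bp, whereas the methods of the study give 50 bp. Mapping to NCBIM37 (mm9) was done by the authors in the HTSstation pipeline (Bowtie 0.12.7 in the submitters' processing notes), and they deposited 1 RPKM value per gene.

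All 29311 listed genes were found in GENCODE vM1 for that build, at identical coordinates after counting starts from 1, and merged exon lengths came from it. RPKM multiplied by exonic kb gave a step of 1 read (1.2218 for ES cells, 0.8197 for forebrain), found from genes whose exons cover at most 2500 bp. Of 6949 and 6685 low values, 59.7% and 61.2% lay within 0.05 of a whole read, where chance gives 10%. Where between whole reads the others lay was not counted. Reads were rounded to whole numbers. Intervals are exact Poisson (levels) or exact conditional binomial (ratios), and cover counting error only, since PCR copies are not independent molecules.

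No test was run. Genes were called at a 4-fold difference on log2(RPKM + 1), without a filter on low values. All 10 members are named. From each list the genes past this limit, up to the 4 of largest difference in each direction, and the gene of the highest RPKM in each sample are named, as are markers and the 3 genes nearest to *Stk31*. *Stag3*, *Rec8*, *Spo11*, *Stra8*, *E2f6*, *Mga*, *Max*, *Dnmt3a*, the mitotic relatives, and overlapping and neighbouring genes fall outside this rule and were chosen after their values were seen. Symbols without a listed row were not analysed here. The members and lists were chosen with earlier results of these data known. Transcripts were aligned to the genome with blastn 2.17.0, keeping hits of at least 90% identity over 100 bp. The step and calls were also run on simulated data, in which the changed genes had more reads than most members have in forebrain. That run therefore does not show how calls fare at such low counts. Scripts ran in Python 3.11.15 with pandas 2.3.3, scipy 1.17.1, matplotlib 3.10.9 and numpy 2.4.6.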

Additional observations from a re-analysis of the deposited data

How the results depend on the processing

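No paired analysis was possible because each cell type has 1 sample, and no replicate could be left out. Of the 10 members, 7 were 4-fold higher in ES cells under each scaling and filter tried and with a pseudocount of 5, but 8 with a pseudocount of 0.1, while 0 were 4-fold higher in forebrain under any of these, and all 10 remained higher in ES cells under each scaling and pseudocount. The median difference of the members, 3.69, became 3.44 when samples were divided by summed RPKM (which moved the median of all genes to -0.26), 3.76 by upper quartile and 3.6 by total reads on genes. It was 4.0 with a pseudocount of 0.1, 2.98 with 5, and 3.45 without *Stk31*. The summed RPKM of the members was 2312.5 in ES cells and 121.25 in forebrain, and the ratio of these sums became 15.8, 20.3 and 17.9 with the 3 scalings and 8.32 without *Stk31*. Leaving out *Sycp3*, chosen after seeing the data because of its overlap with *Chpt1*, gave a ratio of 51.2 and a median difference of 3.92, with the same number of members past 4-fold. The median percentile was 55.2 in ES cells and 18.3 in forebrain among protein-coding genes, and 68.7 and 38.0 among all annotated genes with unlisted genes at 0. In the related lists, the number 4-fold higher in forebrain became 0 for recombination genes with a pseudocount of 5, and 1 in place of 0 for specification genes and for other germline-restricted genes with 0.1, and for repressors with scaling by summed RPKM. The number of repressors 4-fold higher in ES cells became 2 in place of 3 with scaling by summed RPKM and by total reads. Other list counts moved by at most 1. Depth limits the forebrain values, since 7 members rest there on 14 reads or fewer.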

Other observations

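The protein-coding genes next to the 10 members were read in the same way. Of 20 neighbours, 1 on each side of each member and at least 1288 bp away, 19 are listed, and of these 2 were at least 4-fold higher in ES cells (*Gpa33* and *Npy*) and 4 in forebrain, beside 11.3% and 14.4% of all listed genes. *Mael* lies between *Gpa33*, with an RPKM of 1006.93 in ES cells and 0.75 in forebrain, and *Ildr2*, with 4.44 and 597.57. *Hormad1* lies 1288 bp from *Golph3l* (352.14 and 573.07) and 3274 bp from *Ctss*, which encodes a lysosomal protease and had 0 and 152.6. Both neighbours of *Sycp2*, *Phactr3* and *Ppp1r3d*, were higher in forebrain, with 1.14 and 32.47, and 3.74 and 19.81, respectively. *Nr1h5*, 3558 bp from *Sycp1*, had 0 and 0.29. Next to *Stk31*, *Npy* (353209 bp away) had 19.41 and 2.89, and *D330028D13Rik* (5699 bp away) had 117.33 and 58.44.

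The listed protein-coding genes outside all lists that came nearest to *Stk31* in log2(RPKM + 1) of both samples were *F2rl1* (1259.44 in ES cells and 2.97 in forebrain, distance 0.175), *Gm7325* (1171.72 and 2.6, distance 0.349) and *AU018091* (1041.72 and 3.71, distance 0.367). With 2 samples, this likeness is one of level only.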
